A study of Equus caballus with 32 samples.

Results

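The 150 genes described here had the most negative median change between week 0 and week 10 in the synovium of 16 horses, out of 11135 genes ranked and 19418 gene IDs in the deposited table. Levels were CPM, a count divided by its library's total and multiplied by 1000000, taken as L = log2(CPM + 0.5). Genes with a mean L of at least 2 over the 32 libraries entered the ranking, without the 100 genes of highest mean CPM. A horse's change was its L at week 10 minus its L at week 0, and the median over the 16 horses ordered the genes. The members are 1.347% of the ranked genes. Their change over time chose them, so it is given below as a description without a test.

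All horses carried experimental osteoarthritis, made by an osteochondral fragment in a middle carpal joint, with a sham arthroscopy of the opposite joint. Per the labels, 8 horses formed the control arm of a placebo-controlled study, and 8 the arm given iPAAG, in a series on an intra-articular 2.5% polyacrylamide hydrogel. The 4 groups were thus control horses at week 0, control horses at week 10, iPAAG horses at week 0 and iPAAG horses at week 10, each of 8 libraries. Week 0 synovium was an arthroscopic biopsy that preceded the fragment, and week 10 synovium was collected directly after death. The labels give neither the joint of each library, nor the control agent, nor the day of injection, nor the age of the horses. Time, the induced disease and the way of collection therefore cannot be told apart in any change over 10 weeks.

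Synovium is the membrane that lines a joint. Its lining layer holds fibroblast-like cells, which secrete hyaluronan and lubricin into the joint fluid, and macrophages, which clear debris. The layer beneath holds fibroblasts, blood and lymph vessels, nerves and fat, and in osteoarthritis it can be invaded by immune cells. The libraries came from cells freed by collagenase and lysed together. Fewer cells of a type and less RNA per cell cannot be told apart in such bulk libraries. The table gives Ensembl IDs without gene names, and 0 of them could be paired with a symbol here. The labelled tissue was therefore not checked against its markers, no pathway or cell type is named for a member, no sequence is shown, and only 2 members are given by their ID.

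Total counts ranged from 5428928 to 56476566 per library. Control horses 2 and 11 had week 10 libraries unlike the rest, with 12018 and 11373 genes detected against 15684 to 17410 in the other 14 libraries of that week. The main results that rest on these libraries are given with and without them.

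The members' median change ran from -4.21 to -1.29 on the log2 scale, with a median of -1.65. A change of this size leaves from 5.404% to 40.9% of the week 0 level, with a median of 31.9%. Of the 150 members, 30 had a median change of 4-fold or more and 9 of 8-fold or more, while 46 lay between -1.5 and the limit. The end of the list is thus not marked by a gap. The last members inside had -1.290 and -1.290, and the first genes outside had -1.285 and -1.283.

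The members were chosen by the size of the median and not by how steady the change was. Of the 150 members, 83 were lower at week 10 in all 16 horses and 123 in 15 or 16. Of all ranked genes, 2.5% were lower in all 16 horses, which is 278 genes, and 195 of these are no members. In the 14 horses other than control horses 2 and 11, 92 members were lower throughout, beside 3.01% of all ranked genes. All 8 control horses were lower in 107 members, beside 4.89% of all ranked genes, and all 8 iPAAG horses in 106 members, beside 8.3%. The rule used this contrast, so these counts describe the members and support nothing further.

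The size of the change differed more between horses in the members than in other genes. The SD of a member's change over the 16 horses had a median of 1.30 on the log2 scale, against 0.63 over all ranked genes. The medians were 0.99 and 0.48 without control horses 2 and 11. The name of steadily falling genes therefore holds for the direction in most members, and not for the size. Only 9 members were at least 2-fold lower in every horse, and these are the only genes of the 11135 to be so (0.0808%). In 8 members all 16 week 10 levels lay below all 16 week 0 levels, beside 0.171% of all ranked genes. For most members the range of levels at week 10 overlapped the range at week 0, although nearly every horse was lower than its own start.

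Together the members made up a small part of each library, and that part was smaller at week 10 in every horse. In control horses their share of all counts was 1.81% ± 0.303 at week 0 and 0.502% ± 0.200 at week 10 (SD, n = 8). In iPAAG horses it was 1.76% ± 0.317 and 0.640% ± 0.160 (SD, n = 8). The ranges of the 2 weeks did not overlap in either arm. In control horses they ran from 1.51% to 2.48% and from 0.209% to 0.791%, and in iPAAG horses from 1.37% to 2.28% and from 0.457% to 0.890%. Without control horses 2 and 11 the control share at week 10 was 0.545% ± 0.191 (SD, n = 6). The lowest share was that of control horse 11 at week 10 and the next lowest, 0.311%, that of control horse 15.

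**Figure D1:**
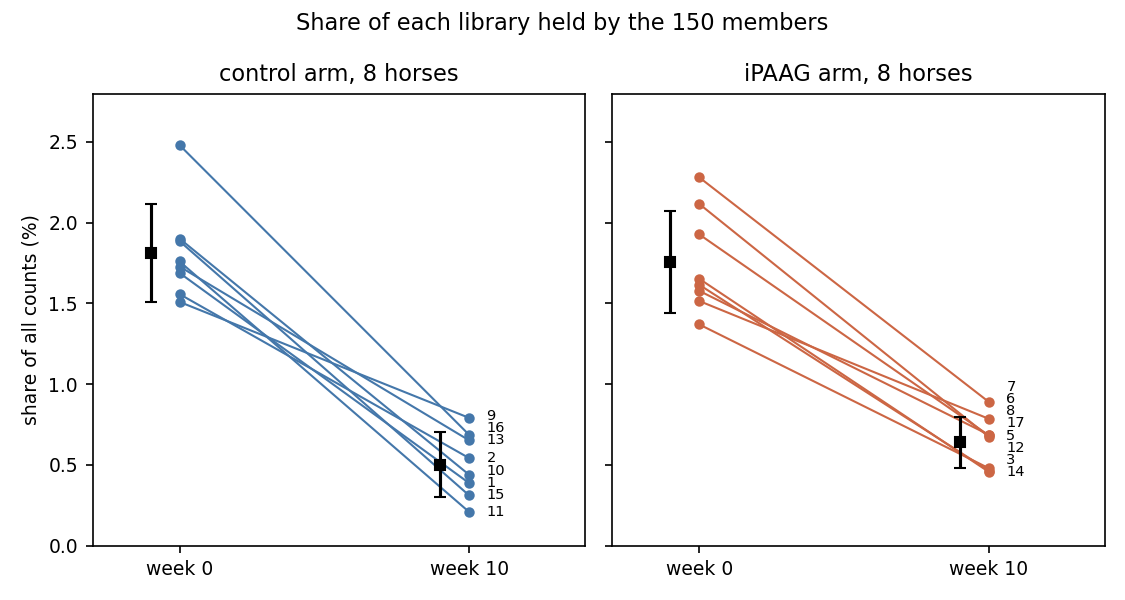
Share of all counts of a library held by the 150 members, in percent, at week 0 and week 10. Each line is a horse, with its code at the right, and black squares with bars are the mean and SD of 8 horses. All 16 lines go down, and no week 10 point reaches the lowest week 0 point of 1.37%.

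In each horse the median over the 150 members was below 0. In control horses it was lowest at -3.85 in horse 11, followed by -3.04 in horse 15, -2.78 in horse 2, -2.06 in horse 1 and -2.04 in horse 10. It was -1.71 in control horse 16, -1.18 in horse 13 and -1.06 in horse 9. In iPAAG horses it lay between -1.88 in horse 14 and -1.13 in horse 8, with a median of -1.47. Control horses thus included both the largest and the smallest change, and the iPAAG horses formed a narrower band within that range.

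The mean of these horse medians was -2.21 ± 0.95 in the control arm and -1.51 ± 0.28 in the iPAAG arm (SD, n = 8). The control value was -1.85 ± 0.72 without control horses 2 and 11 (SD, n = 6). The 6 remaining control horses ranged from -3.04 to -1.06 and so still spanned all 8 iPAAG horses. Without control horse 15 as well it was -1.61 ± 0.47 (SD, n = 5), close to the iPAAG value. Those 3 are the control horses with the most negative medians and were left out after their values were seen, so the smaller gap follows in part from that choice. The ranked genes as a whole had medians near 0 in most horses, from -0.18 to 0.16, but -0.60 in control horse 11. Relative to that median, the members stood at -3.25 in control horse 11, -2.92 in horse 15 and -2.60 in horse 2. After TMM scaling, which moved the median of control horse 11 to -0.23, the members had -3.72 there.

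The number of members below 0 was similar between horses although the size was not. It ran from 132 of 150 in control horse 9 to 150 in control horse 15. Of all ranked genes, 46.2% were lower in control horse 9 and 55.4% in control horse 15. Over all horses, that share ran from 39.3% in control horse 10 to 69.0% in control horse 11. In these horses, 145 and 144 members were lower, so the background differed more than the member counts. Such a share is not given for the 2-fold counts that follow, so they are not shown to be particular to the members. The rule chose median changes of -1.29 or less, so many values past 2-fold follow from that choice. Members at least 2-fold lower ran from 80 in control horse 9 to 141 in control horse 15 among control horses, and from 84 in horse 8 to 137 in horse 14 among iPAAG horses. The week 10 library of control horse 15 detected 16876 genes and was in this respect unlike those of horses 2 and 11.

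The most negative member medians came from horses whose week 10 libraries had low totals. The 5 week 10 libraries with the lowest totals, at most 28614860 counts, those of control horses 1, 2, 11 and 15 and iPAAG horse 3, had member medians from -3.85 to -1.76. The other 11, with at least 32097885 counts, had medians from -2.04 to -1.06. Among these 11, the deepest library, that of control horse 10 with 54155598 counts, had the most negative median, -2.04. This division was chosen after the values were seen. Of the 5 libraries with the lowest totals, 4 are of control horses, so depth and arm cannot be fully told apart here. When the libraries were thinned to 5428928 counts, control horse 15 had -3.08 and horse 11 -3.91, close to the values at full depth. Horse 2 had -2.71, but that total is the one of its own week 10 library. This library was thus left as it was, and the value of horse 2 could hardly move. The part of other properties of these libraries, such as RNA quality, was not tested.

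Members without a single count were found mainly in the libraries of control horses 2 and 11. No member was at 0 in any week 0 library. At week 10, 48 of 150 members were at 0 in control horse 2 (32%) and 74 in control horse 11 (49.3%), while no other library had more than 1. Among all ranked genes the shares at 0 in these libraries were 7.79% and 8.90%. Where a count is 0, the change rests on the added 0.5 CPM, so the size of the change in these horses is set in part by that constant.

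**Figure D2:**
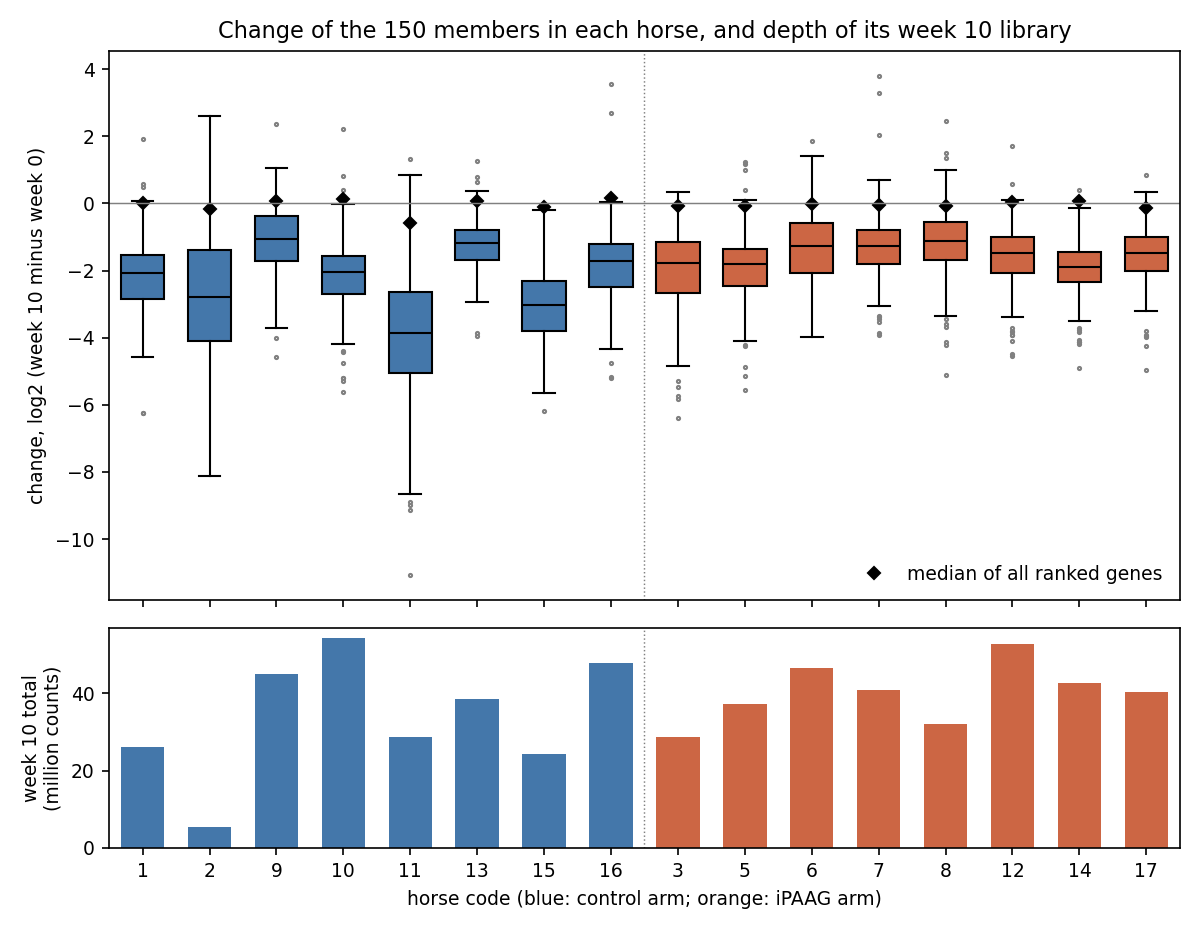
Above, the log2 change of the 150 members in each horse. Boxes span the quartiles, the line is the median, whiskers reach the last value within 1.5 quartile ranges, dots lie beyond, and diamonds are the median of the 11135 ranked genes. Below, the total of the week 10 library, in units of 1000000 counts. Every box lies below 0, with the lowest median, -3.85, in control horse 11 and the highest, -1.06, in control horse 9.

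ENSECAG00000013336 had the most negative median change, -4.21. At week 0 its level in control horses had a lowest value of 22.5, a median of 194 and a highest value of 265 CPM, and in iPAAG horses these were 64.8, 169 and 345 CPM. At week 10 the control values were 0, 3.26 and 27.2 CPM and the iPAAG values 1.81, 14.6 and 69.9 CPM. The gene was lower in 16 of 16 horses, but the range of levels at week 10 reached into that of week 0, because control horse 9 began at 22.5 CPM and iPAAG horse 7 ended at 69.9 CPM. Its change ran from -7.60 in control horse 11, where the gene had 0 counts at week 10, to -0.80 in iPAAG horse 7. Control horse 2 also had 0 counts, from 3471 at week 0.

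The median change of ENSECAG00000013336 was -5.74 in control horses and -3.54 in iPAAG horses. With control horses 2 and 11 left out, the control value was -4.58 and the median control level at week 10 was 4.88 CPM. The difference of changes, iPAAG minus control, was 1.87 (SE 1.02, edgeR adjusted p = 0.982). At week 10 the gene stood 1.74 higher on the log2 scale in iPAAG horses (SE 0.94, edgeR adjusted p = 0.531). Neither value passed the threshold. Both fitted values include the week 10 libraries of control horses 2 and 11, where this gene had 0 counts, and are not given without them.

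ENSECAG00000009302 had the smallest spread between horses among the 83 members lower in every horse. The SD of its change was 0.51 on the log2 scale, its median change was -1.61 and its rank in the list was 85. At week 0 its level had a lowest value of 25.3, a median of 85.8 and a highest value of 125 CPM in control horses, and 39.4, 88.6 and 135 CPM in iPAAG horses. At week 10 these values were 8.14, 18.8 and 43.3 CPM and 13.7, 26.3 and 53.0 CPM. The levels of the 2 weeks overlapped between horses, while each horse was lower than its own week 0 level. The change ran from -3.04 in control horse 15 to -0.98 in iPAAG horse 12.

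This gene did not share the extreme values of control horses 2 and 11, where its change was -1.55 and -1.58. Its 103 counts at week 10 in horse 2 and 233 in horse 11 were well above 0. The arm medians were -1.65 in control and -1.56 in iPAAG horses. The difference of changes was 0.46 (SE 0.24, edgeR adjusted p = 0.982), and the week 10 difference was 0.57 (SE 0.30, edgeR adjusted p = 0.522).

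**Figure D3:**
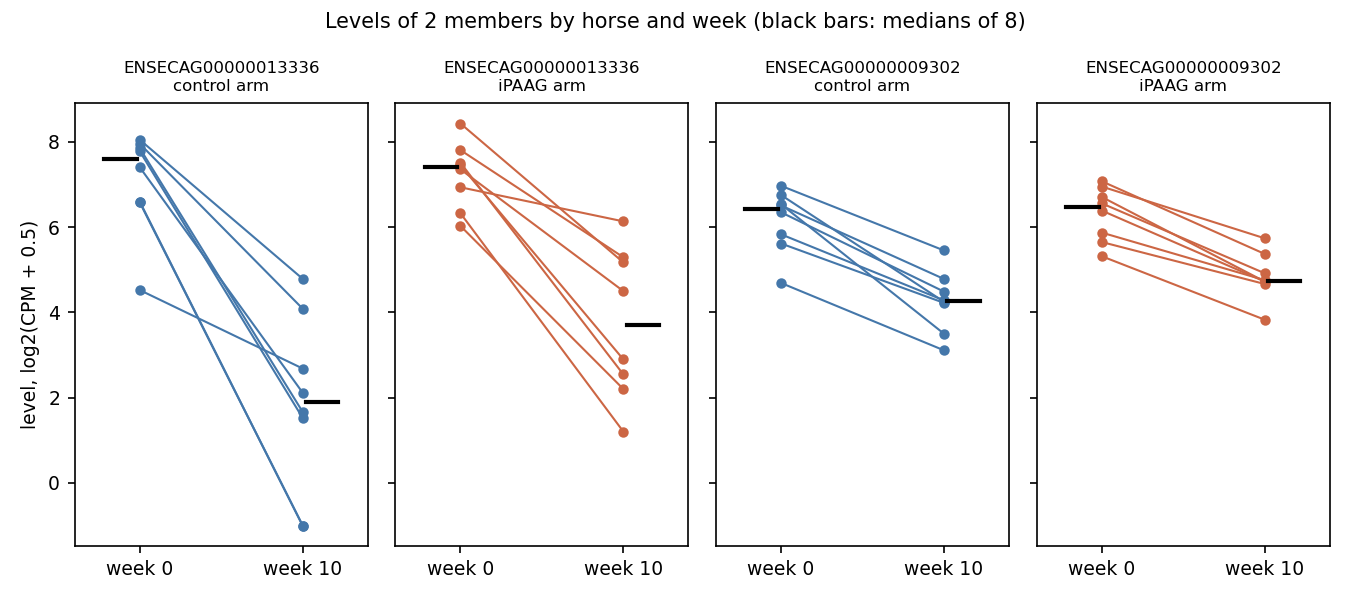
Level of 2 members as log2(CPM + 0.5), per horse at week 0 and week 10, with black bars for the median of 8 horses. The first has lines of very unequal slope, from -7.60 to -0.80, and the second has slopes from -3.04 to -0.98, with an SD of change of 0.51.

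Several other members are described by their rank, chosen after their values were seen. The member at rank 2 had a median change of -3.92. Its median level was 15.6 CPM in control and 11.2 CPM in iPAAG horses at week 0, and 0.863 and 0.421 CPM at week 10. The change was larger in the iPAAG median, -3.94, than in the control median, -2.88, and was above 0 in control horse 11, at 0.31. It is thus a member whose change was least where most others changed most.

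The member at rank 3 had a median change of -3.79 and was lower in 16 of 16 horses. Its median level was 16.7 CPM in control and 20.3 CPM in iPAAG horses at week 0, and 0.538 and 2.48 CPM at week 10. The member of highest level, at rank 121, had a median of 1357 CPM in control and 1199 CPM in iPAAG horses at week 0, and of 506 and 384 CPM at week 10. Its change was above 0 in 2 horses, with 1.17 in iPAAG horse 5. The most abundant member was thus not uniform in direction.

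The members spanned most of the range of levels of the ranked genes, from which the rule had left out the most abundant and the lowest genes. Their mean L at week 0 ran from 2.61 to 10.15, against 0.74 to 10.15 over all ranked genes. Their mean L at week 0 had quartiles of 3.80, 5.16 and 6.53, against 3.73, 4.86 and 6.04 over all ranked genes. At week 10 the members' quartiles were 1.88, 3.24 and 4.62, and those of all ranked genes 3.66, 4.86 and 6.03. Members with a mean of at least 100 CPM numbered 37 at week 0 and 16 at week 10. None had a mean under 1 CPM at week 10, while 43 were under 5 CPM. The order of the members by level was largely kept, with a Spearman rho of 0.936 between the mean L of both weeks across the 150 members, which share their libraries.

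The members were also divided by their starting level. In 3 classes of 50 members by week 0 level, the median change was -1.63, -1.65 and -1.69 from low to high, all beyond the limit that chose them. The members lower in all 16 horses numbered 20, 28 and 35. Zero counts were most frequent in the lowest class, with 39 of 50 members at 0 in control horse 11, against 18 and 17 in the others. In control horse 2 the numbers were 27, 14 and 7. Such counts were not taken for all ranked genes of like level, so these differences between classes are not shown to be particular to the members.

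At week 0 the members already differed more between horses than most genes did. The SD of L over the 16 week 0 libraries had a median of 0.67 in the members and 0.29 over all ranked genes. It was above that 0.29 in 149 of the 150 members. The change contains the week 0 level, so a gene that varies at week 0 is more easily ranked high, and this is a description only. At week 10 the medians were 1.22 and 0.55, and 0.86 and 0.37 without control horses 2 and 11. In 138 members the SD was higher at week 10 than at week 0, beside 91.4% of all ranked genes. It was higher in 119 members without control horses 2 and 11, 79.3%, beside 71.9%.

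Each arm was read separately to see how far the same genes changed in horses that had not been used to choose them. When the same rule was applied to the 8 control horses alone, its 150 genes had a median change of -2.06 there and of -1.22 in the iPAAG horses. Of these genes, 144 had a median below 0 in iPAAG horses, beside 52.9% of all ranked genes, and 96 were at least 2-fold lower, beside 1.94%. The median over the 150 genes was below 0 in each iPAAG horse, from -1.74 to -0.73. With control horses 2 and 11 left out, the median change in iPAAG horses of genes chosen in the control arm was -1.39.

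When the rule was applied to the iPAAG horses alone, its 150 genes had a median change of -1.55 there and of -1.79 in the control horses. Of these, 143 had a median below 0 in control horses, beside 51% of all ranked genes, and 119 were at least 2-fold lower, beside 4.45%. Their median change in control horses was -1.59 without horses 2 and 11. Genes chosen in either arm were therefore mostly lower in the other arm, whose horses are different animals. The 2 lists shared 75 genes, 50.0% of each, and all 75 are members. Of the 150 members, 102 are in the list of the control arm and 112 in that of the iPAAG arm. The members were ranked on the same horses as these lists, so the overlaps with the members follow largely from the rule. Both arms share the change from arthroscopic to postmortem collection.

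The median change of a member was larger in control than in iPAAG horses in 119 of 150 members, beside 49.1% of all ranked genes. The median over the members was -1.98 in the control arm and -1.49 in the iPAAG arm. Without control horses 2 and 11 the control value was -1.73, and 106 members had the larger change in control horses, beside 38.9% of all ranked genes. In 126 members the median was at least 2-fold lower in both arms, beside 1.45% of all ranked genes. In 1 member the iPAAG median was above 0, at 0.12, and in none the control median. Across the members the Pearson correlation of the 2 arm medians was 0.423 and the Spearman rho 0.208. Without control horses 2 and 11 these were 0.495 and 0.241. The members were chosen on the median over both arms, which narrows the range of these values and lowers such a correlation.

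**Figure D4:**
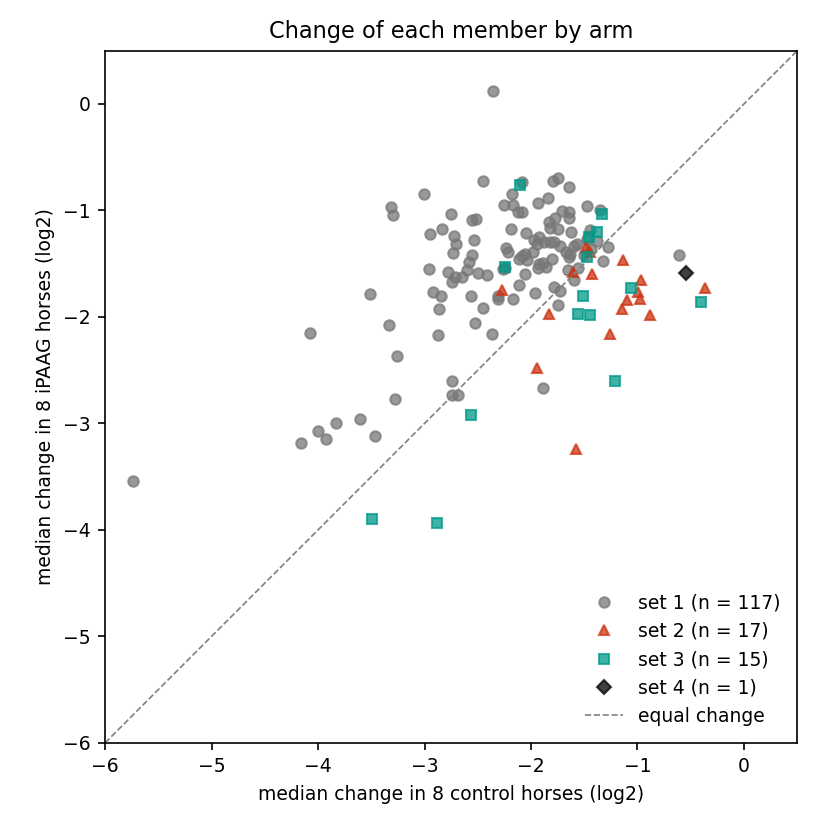
Median log2 change of each of the 150 members in 8 control horses (horizontal) and 8 iPAAG horses (vertical). Symbols mark 4 sets of members that varied alike across horses, and the dashed line marks equal change. Most points, 119, lie above the line, where the control change is larger, while 13 of 17 members of set 2 and 9 of 15 of set 3 lie below it (6 of 15 without control horses 2 and 11).

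The design tests whether the change differed between arms, gene by gene, with edgeR's quasi-likelihood test over all 32 libraries and the horse as a block. The rule pooled the horses without regard to arm, so this contrast did not itself choose the members. It does use the same changes as the rule. Among ranked genes a median change of -1 or less was more frequent in control horses, 4.45%, than in iPAAG horses, 1.94%. Choice by the pooled change can therefore favour genes with a larger control change, and the shares of all genes given beside the members do not allow for this. All 150 members passed the filter on low counts, and 0 passed the threshold of 0.05 on the adjusted p, beside 0% of 15498 genes. The smallest member value was 0.982. At an unadjusted p under 0.05 there were 27 members (18.0%), beside 3.98% of all genes. Without control horses 2 and 11 there were 26 (17.3%), beside 714 of 15731 genes. DESeq2 also called 0 members, beside 0.0774% of all genes, and its smallest adjusted p among the members was 0.0998. At the unadjusted level it had 54 members (36%), beside 8.39% of all genes. No member can thus be named as different in its change between arms. The median SE of a member's difference was 0.77 on the log2 scale, so a 2-fold difference lies within 2 SE of 0.

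The difference of changes was positive, that is the fitted change less negative in iPAAG horses, in 125 of 150 members, beside 62.1% of all genes. Its median was 0.81 over the members and 0.12 over all genes. Without control horses 2 and 11 it was positive in 112 members, beside 49.4% of all genes, with a median of 0.52. At an unadjusted p under 0.05, 25 of the 150 members (16.7%) were positive, beside 2.61% of all genes, and 2 were negative. The members share libraries, vary together and were chosen by the same changes, so these counts are no test over the list.

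The member with the smallest p for this difference ranked 31. At week 0 its median level was 833 CPM in control and 613 CPM in iPAAG horses. At week 10 the control levels had a lowest value of 14.4, a median of 174 and a highest value of 413 CPM, and the iPAAG levels 215, 437 and 532 CPM. The arms overlapped at both weeks. With control horses 2 and 11 left out, the lowest and median control values at week 10 were 80.6 and 241 CPM. The difference of changes was 1.73 (SE 0.48, edgeR unadjusted p = 0.0021, adjusted p = 0.982). This fitted value includes control horses 2 and 11 and is not given without them.

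At week 10 alone, 0 of 150 members differed between the arms in edgeR, beside 0% of 14654 genes, and the smallest adjusted p of a member was 0.341. An unadjusted p under 0.05 was found in 13 members (8.67%), beside 10.6% of all genes, a share near the background. At that level, 9 of the 150 members (6%) were higher in iPAAG horses, beside 4.16% of all genes, and 4 were lower. The iPAAG level was the higher in 118 members, beside 49.6% of all genes, with a median difference of 0.47. Without control horses 2 and 11 it was the higher in 105 members, beside 48.0% of all genes, with a median difference of 0.25. With limma-voom the number was 124, beside 62.1%, and the median 0.88. Library quality weights gave 100, beside 53.2%, and 0.19. The week 10 level is part of the change that chose the members. Choice by that change can favour a lower control level here too, and the shares of all genes do not allow for this. DESeq2 called 0 members, beside 0.669% of all genes, and had 27 (18%) at an unadjusted p under 0.05, beside 13.7% of all genes.

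The member with the smallest p at week 10 went the other way and ranked 62. Its control levels at week 10 had a lowest value of 10.3, a median of 19.4 and a highest value of 44.1 CPM, and its iPAAG levels 1.29, 8.26 and 14.6 CPM. The arms overlapped between 10.3 and 14.6 CPM. The difference was -1.56 (SE 0.48, edgeR unadjusted p = 0.0042, adjusted p = 0.341).

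At week 0, before the fragment was made, 0 of 150 members differed between the arms in edgeR, beside 0% of 14615 genes, and the smallest adjusted p of a member was 0.794. An unadjusted p under 0.05 was found in 4 members (2.67%), beside 5.84% of all genes. None of the 150 was at that level and higher in iPAAG horses, beside 2.29% of all genes. DESeq2 called 0 members, beside 0.00684% of all genes, and had 7 (4.67%) at that level, beside 7.12%. The iPAAG level was the higher in 66 members, beside 50.9% of all genes, with a median difference of -0.05. The sign of that median was not the same under every setting, since limma-voom gave 0.01.

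Members tended to change together from horse to horse. Over the 11175 pairs of members, the Pearson correlation of their 16 changes had a median of 0.365 and was above 0 in 80.6% of pairs. The median was 0.308 without control horses 2 and 11. After the horse's own median over the members was subtracted, it was -0.00865. A value near 0 follows from that step by construction. The points of each pair share libraries and depth, and no p is given. At week 0 the levels of the members had a median correlation of 0.151, and at week 10 of 0.465, or 0.342 without control horses 2 and 11.

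Clustering by these correlations gave 4 sets, of 117, 17, 15 and 1 members. They were formed from the changes themselves, so the differences between them are descriptions. Set 1 holds 77 of the 83 members that were lower in all 16 horses, and 8 of the first 10 of the list, ENSECAG00000013336 included. Its median change was -4.20 in control horse 11, -3.34 in horse 2 and -3.32 in horse 15, and least in iPAAG horse 6, at -1.08. The arm medians were -2.12 in control and -1.42 in iPAAG horses, and the control value was -1.81 without control horses 2 and 11. All 25 members with a positive difference of changes at an unadjusted p under 0.05 belong to this set.

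The 17 members of set 2 had another order of horses. Their median change was -3.80 in control horse 11, followed by -2.66 in iPAAG horse 3 and -2.30 in iPAAG horse 6, and was -0.32 in control horse 2 and -0.47 in iPAAG horse 8. None of them was at 0 in the week 10 library of control horse 2, where 47 members of set 1 were. The arm medians were -1.26 in control and -1.77 in iPAAG horses, and 13 of the 17 had the larger change in iPAAG horses. With control horses 2 and 11 left out the control median was also -1.26 and the number 14. The member of highest level is in this set.

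The 15 members of set 3 changed little in control horse 11. Their median change there was -0.57, the least of the 16 horses, and only 1 of them was at 0 in its week 10 library, against 67 of the 117 members of set 1. In control horse 2 their median was -1.01. The largest values were -3.44 in iPAAG horse 3, -2.61 in control horse 10 and -2.50 in iPAAG horse 14. The arm medians were -1.48 in control and -1.80 in iPAAG horses, and 9 of the 15 had the larger change in iPAAG horses. Without control horses 2 and 11 the control median was -1.69 and the number 6. The members at ranks 2 and 62 belong here.

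**Figure D5:**
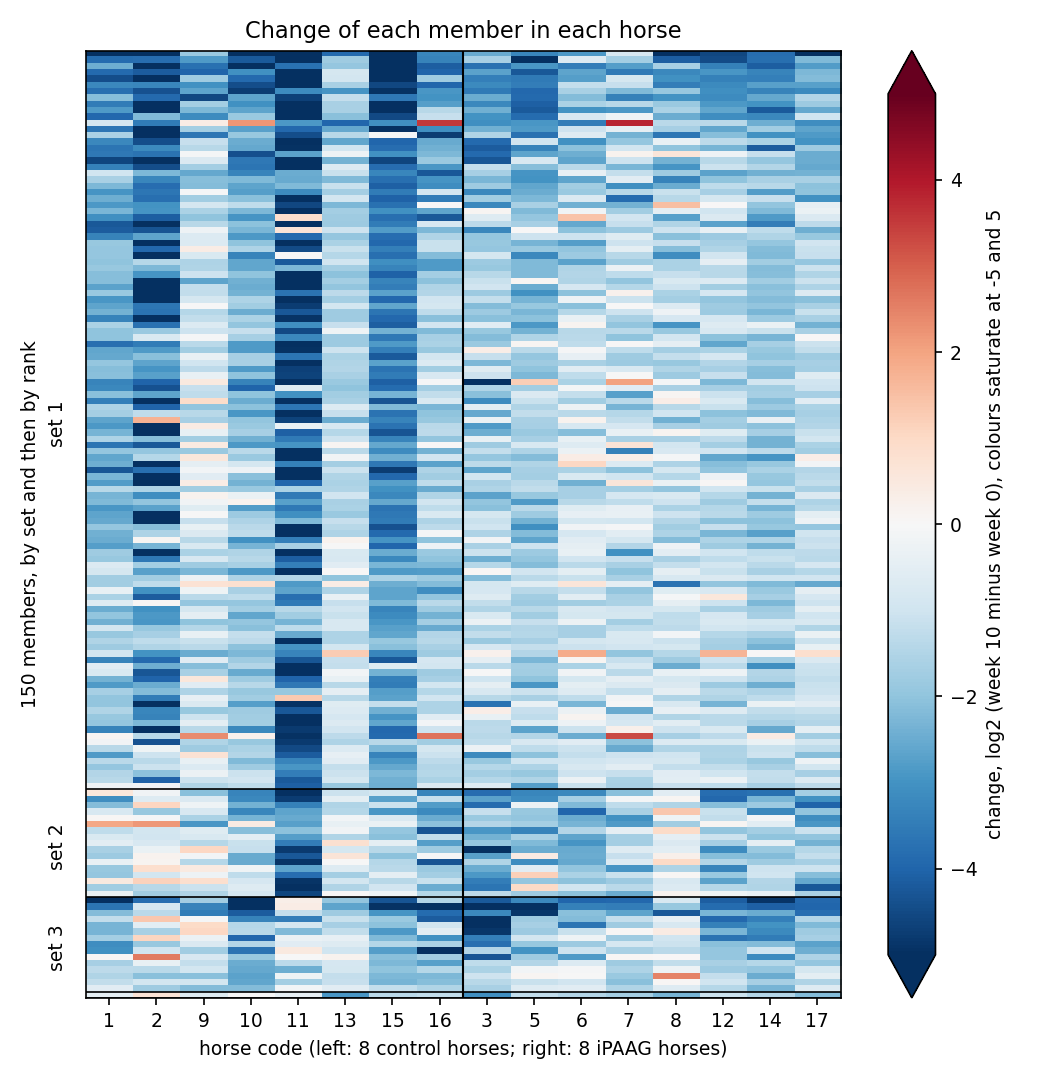
Log2 change of each member (rows, by set and then by rank) in each horse (columns, control horses left of the line and iPAAG horses right of it). Blue is lower and red higher at week 10, with colours saturated at -5 and 5. Control horses 11, 15 and 2 are darkest in set 1, and control horse 11 is pale in set 3.

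The genes that varied most like the 2 members given by ID were sought among the other 149 by the correlation of changes over 16 horses. For ENSECAG00000013336 the 3 highest values were 0.878, 0.841 and 0.828, with members at ranks 36, 77 and 127, and the median over the members was 0.50. For ENSECAG00000009302 they were 0.822, 0.692 and 0.513, with ranks 115, 27 and 112, and the median was 0.126. After subtraction of each horse's median, the first values became 0.658 and 0.923. The change of ENSECAG00000009302 varied little between horses, so what is left after that step is largely the subtracted median. Even the member with its lowest correlation, at rank 68, moved from -0.286 to 0.406, so the 0.923 follows in part from the step. By its median of 0.126 before that step, the most uniform member was only weakly tied to the rest.

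The least uniform members were 9 that were lower in 12 or fewer horses. They ranked between 15 and 138, so a place high in the list did not exclude exceptions. The member at rank 15 had a median change of -2.66 but reached 3.80 in its highest horse. The member at rank 138 was lower in 10 horses, 4 control and 6 iPAAG, and its change ran from -4.93 to 3.30. The member at rank 120 was lower in 7 control horses and 3 iPAAG horses. It is the one whose iPAAG median lay above 0.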

How the data were processed

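Polyadenylated RNA of synovium was measured in 32 libraries of 16 horses. The authors deposited a table of counts per Ensembl gene ID. They are whole numbers that sum to different totals per library, with no sign of scaling. Versions named in the submitters' processing notes are STAR 2.7.10b and limma 3.62.2, with the build EquCab3.0. How reads were counted, with which annotation and strand setting, is not given in the sources used here. Overlapping genes and genes with close copies are thus uncertain. The 33 highest values are written with fewer digits. Genes without any count appear to have been removed before deposit, since 0 genes were at 0 in all libraries. Of 32 columns, each matched 1 library by animal code and week.

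The rule and members are given in the report. Levels of single members are CPM by library total, without TMM. Tests used edgeR 4.0.16 (R 4.3.3) on the counts, with TMM, its filter by group, a quasi-likelihood test and Benjamini-Hochberg adjustment over all genes tested, with a threshold of 0.05. All p-values are two-sided. The SE is the log2 value divided by the square root of F. The code was tested on simulated data. Libraries are replicates at the level of the horse. The horse was the block because the titles give the same animal code at both weeks. The 2 libraries of a horse had a median correlation of their deviations from the group means of 0.121 (-0.328 to 0.491), over 0.1 in 8 of 16 horses.

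Alternatives were DESeq2 1.42.0, limma-voom (limma 3.58.1) with and without library quality weights, no TMM, no filter, no block, other pseudocounts, level filters and averages, and horses left out. The thinned counts (Python 3.11.15, numpy 2.4.6) and the correlations without control horses 2 and 11 or with horse medians removed, and the control arm without horse 15 too, were added after the data were seen.

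The members, lists and tests were chosen with earlier results of these data known. Planned gene lists and cell type markers need symbols and were not read. The reference table has 39335 genes of another assembly and 0 of these IDs. The rule for genes given by ID took the member with the most negative median change and, among those lower in all 16 horses, the one with the smallest SD of change, with the 3 members most like each.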

Additional observations from a re-analysis of the deposited data

Results flagged for a closer look

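In 16 groups of 8 horses, the gap between the outermost value and its neighbour was measured against the whole range, for the members' shares of counts, horse medians, counts of members lower and levels of the 2 members given by ID. Chance marks about 0.8 such groups, and 1 was marked. The members held 2.48% of the counts of control horse 16 at week 0, against 1.51% to 1.90% in the other 7 control horses.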

How the results depend on the processing

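Of the 150 members, 126 to 146 were also chosen with pseudocounts of 0.1 or 2 CPM, TMM scaling, the mean over horses, the most abundant genes kept or thinned counts, and 136 to 144 when each horse was left out. Without control horses 2 and 11 there were 133, and without a level filter 108. With a mean L of at least 4 there were 78, which are all the members that pass that filter. The members' median change ranged from -2.16 to -1.79 in the control arm and from -1.55 to -1.44 in the iPAAG arm when each horse of that arm was left out, and the control value was -1.60 without horses 2, 11 and 15. The median correlation of changes, 0.365, became -0.00865 once each horse's median was subtracted, which removes what the members share by construction. In the difference of changes and at both weeks, 0 members passed the threshold under every alternative run, those without horse 2 or horse 11 included. With no replicate block the difference of changes also had 0 members past the threshold, so pairing by horse changed no call of a member. At an unadjusted p under 0.05 there were then 15 members (10%), beside 759 of 15498 genes. With the block there were 27 (18%), beside 617 of 15498. Positive differences of changes numbered 112 to 125 over the alternatives run for them. Counts at an unadjusted p under 0.05 ranged from 15 to 54 for the difference of changes, 8 to 27 at week 10 and 2 to 9 at week 0. These are 10% to 36%, 5.33% to 18% and 1.33% to 6% of the members. Over all genes tested, 14615 to 19418 by setting, such counts ranged from 540 to 1301, from 1223 to 2138 and from 615 to 1517. The background thus moved with the setting too, and the cause was not tested. At a median SE of 0.77, the tests leave wide intervals for single members.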
